A study of Mus musculus with 3 samples.

Results

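The response to lipopolysaccharide (LPS) was described in PDL2-negative dendritic cells (DCs) grown from wild-type mouse bone marrow. The culture lasted 5 days and held GM-CSF (granulocyte-macrophage colony-stimulating factor), on which precursors in marrow become DCs. Flow cytometry then separated the cells by surface PDL2, which binds PD-1, a receptor that restrains T cells. The comparison takes 2 of the series' 3 arrays: PDL2-negative cells stimulated with 100 ng/ml LPS, and PDL2-negative cells left untreated. The remaining array, of untreated PDL2-positive cells, is given beside named genes only to show the level there. The duration of the stimulation and the number of mice or cultures behind each RNA are not given by the sources used. Each group has 1 array, so the differences have no replicate check, no test was made, and genes are described by size; the number of arrays limits the precision.

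LPS is a cell wall component of Gram-negative bacteria that is sensed by Toll-like receptor 4. DCs that sense it are known to secrete cytokines, present antigen to T cells, take up less new material and shift energy supply towards glycolysis. Cytokine, chemokine, interferon-stimulated and NF-kB target genes are the usual account of that response. The text below describes the remainder, above all the genes that were lower on the LPS array.

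Levels are log2 signals after quantile normalization, and a difference is the LPS value minus the untreated value on that scale. The floor, the median of all values, was 5.58, and a fold against a value at or below it is a lower bound, written "at least". Of 17886 genes on the array, 11000 exceeded the floor on 1 or both arrays and 10163 on both. At a 2-fold threshold, 1521 genes (13.8%) were lower and 1009 (9.17%) were higher with LPS. These shares are the background for each count below, and they are not matched for the untreated signal of the genes counted. The median difference over all 11000 genes was 0.02, and it was -0.09 with the deposited values left as they were, a shift that makes more genes lower.

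The lower genes were many and mostly moderate, and the higher genes fewer and more extreme. A 4-fold difference was reached by 369 lower and 419 higher genes, an 8-fold one by 95 and 198, and a 16-fold one by 14 and 92. Lists of cytokine, interferon and NF-kB genes, with 291 genes measured, held 181 of the higher genes but only 11 of the lower ones. The lower genes were also bright at the start, with a median untreated signal of 9.23 against 8.08 over all genes. Among the 2751 genes with the highest untreated signal, 23.3% were lower and 5.93% higher; in the lowest 2750, whose untreated values were at most 6.68 and so had little room to fall before the floor, 0.47% were lower. The plot of LPS against untreated signals shows both clouds of genes.

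**Figure D1:**
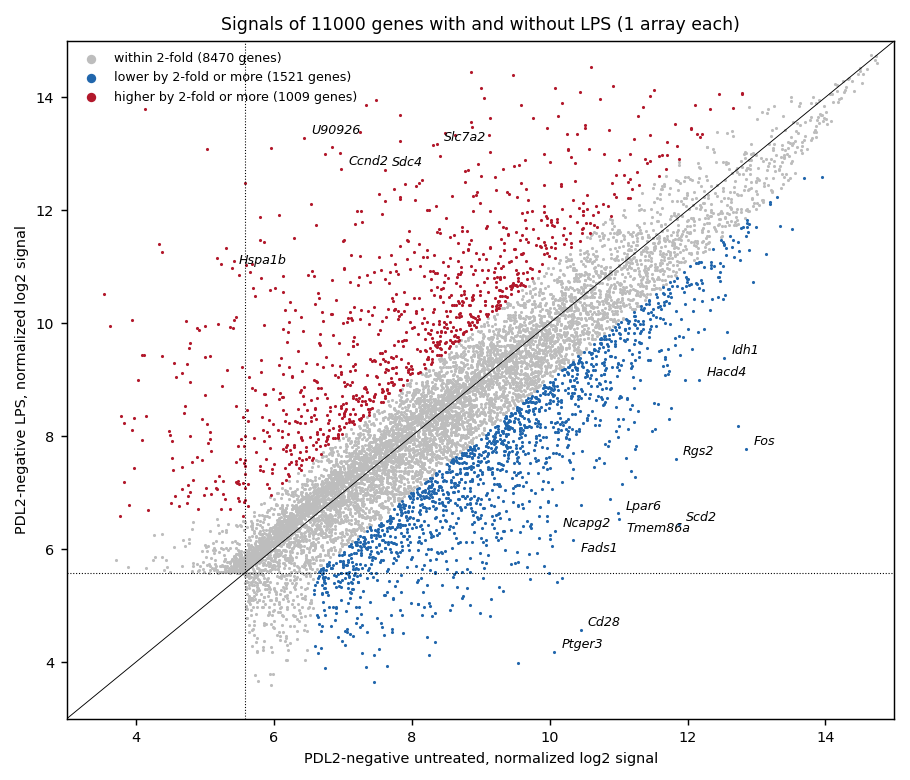
Each point is 1 gene, with its log2 signal in untreated PDL2-negative cells on the horizontal axis and with LPS on the vertical axis, 1 array each; dotted lines mark the floor and the diagonal marks no difference. The 1521 lower genes (blue) lie mostly at middle to high untreated signals, and the 1009 higher genes (red) reach farther from the diagonal.

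The only error measure is technical. It comes from genes read by 2 or more probe sets, each a group of short oligonucleotides against another stretch of the transcript. The robust SD of a single probe set's difference was 0.29 over 4231 genes. It was taken as the spread between the differences of the 2 brightest probe sets, divided by the square root of 2. It says nothing about variation between cultures or mice. Of 612 lower genes with at least 2 usable probe sets, 336 had at least 2 probe sets past 2-fold in that direction; of 433 such higher genes, 326 did. A further limit is that 1022 of the 11000 genes held an identical deposited value on both arrays.

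Cells on both arrays carried DC transcripts. The integrin gene Itgax, which encodes CD11c, had a signal of 11.48 without LPS and 10.80 with it, and the class II gene H2-Ab1 had 14.29 and 14.18. Of 13 measurable DC markers, 1 was lower (Cd24a, by 1.98) and 1 higher (Btla, by 1.89), while Xcr1 was below the floor on both arrays. The sort marker gene Pdcd1lg2 was 8.40 without LPS and 9.44 with it. Markers of other marrow cells were present too. Of 12 measurable markers of monocytes and precursors, 8 were lower and 1, Hp, was higher (median -1.21), and their summed linear signal was 6837 without and 14213 with LPS. Hp alone had a log2 signal of 10.52 without and 13.50 with LPS. Of 12 neutrophil markers, 4 were lower and 1, Lcn2, was higher, with a summed signal of 33961 without and 22367 with LPS. Macrophage markers summed to 82722 and 72538, with 3 of 15 lower and 3 higher, and Cd163 and Vsig4 below the floor on both arrays. These sums lay above those of the DC markers, which were 56672 without and 47861 with LPS. Sums over different genes do not give shares of cells. Of 10 lymphocyte and NK markers, 7 were below the floor on both arrays, the T cell genes Cd3d and Cd3g and the B cell genes Cd79a and Ms4a1 among them. Fewer cells of a type and less RNA per cell cannot be told apart in such bulk RNA, and the part of these other cells in the differences below was not tested.

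Enzymes that make and modify fatty acids stood among the largest decreases. Unsaturated fatty acids are built by elongases and by desaturases, which insert double bonds. Scd2, a stearoyl-CoA desaturase gene, had the largest decrease outside the usual lists among genes measurable with and without LPS: its signal was 11.88 untreated and 6.44 with LPS (43.5-fold lower). In PDL2-positive cells it was 10.89, so only the LPS array was low. Fads1, the delta-5 desaturase of long polyunsaturated fatty acids, went from 10.34 to 6.17 (18.1-fold lower), with 9.70 in PDL2-positive cells. The elongase gene Elovl5 was 11.03 without and 8.70 with LPS, and its 2 probe sets differed by -2.49 and -2.33. Hacd4, an enzyme of the elongation cycle, was 12.17 and 8.99, and it was lower still, at 6.64, in PDL2-positive cells. In all, 10 of 22 genes of fatty acid synthesis and desaturation were lower and 1 higher (median -0.78). The other lower members were Acsl3, Fasn, Fads2, Scd1, Elovl6 and Acly, which act at some, not all, steps between cytosolic acetyl-CoA and finished fatty acids. The higher one was Me1, the cytosolic malic enzyme that supplies NADPH, at 6.48 without and 8.46 with LPS.

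Sterol synthesis was lower in fewer genes. Of its 20 genes, 6 were lower and 0 higher (median -0.44), and 16 lay below 0. Dhcr7, which makes the last step to cholesterol, was 9.24 untreated and 6.17 with LPS (8.44-fold lower). The other lower genes were Mvd, Nsdhl, Ebp and Msmo1, which encode enzymes of the same path, and Stard4, a sterol carrier; among their brightest probe sets the lowest difference was the -1.68 of Mvd.

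Genes that handle phospholipids and sphingolipids differed in both directions. Tmem86a, whose product splits lysoplasmalogens, was 11.01 without and 6.54 with LPS (22.3-fold lower), against 10.12 in PDL2-positive cells. Lpin1, a phosphatidate phosphatase that makes diacylglycerol, was 9.91 and 5.70 (18.5-fold lower), against 10.14. Thus both genes were high on the 2 untreated arrays and low on the LPS array. Other phosphatases of the same substrate class differed in both directions: Plpp1 was at least 14.2-fold higher, from below the floor to 9.41, and Plpp3 went from 8.27 to 10.78, while Plpp2 went from 9.49 to 8.28. Dgat2, which makes triglyceride from diacylglycerol, was higher too, going from 6.72 to 10.03 by its brightest probe set and by 3.68 on the other. Pla2g4a, the cytosolic phospholipase that releases arachidonic acid, went from 8.82 to 11.30, while the lysosomal phospholipase gene Pla2g15 went from 9.98 to 7.19. Of 49 phospholipid genes 13 were lower and 6 higher (median -0.47).

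Of 29 sphingolipid genes, 8 were lower and 2 higher (median -0.66). Cerk, the ceramide kinase gene, was 10.09 untreated and 6.78 with LPS (9.90-fold lower). Kdsr, which reduces 3-ketosphinganine, went from 9.0 to 6.19, and the ceramide synthase gene Cers5 from 11.01 to 8.68. The sphingomyelinase genes Smpd1 and Smpd2 and the acid ceramidase gene Asah1 were lower as well. Sphk1, which makes sphingosine 1-phosphate, was higher, at 7.39 and 9.36, and so was another ceramide synthase gene, Cers6, by 1.10.

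Most mitochondrial genes lay below 0, mainly by less than 2-fold. Of 32 genes of the tricarboxylic acid (TCA) cycle and of pyruvate entry, 13 were lower and 0 higher (median -0.71), and 28 lay below 0. Idh1, the cytosolic isocitrate dehydrogenase gene, was 12.53 untreated, 9.39 with LPS and 12.23 in PDL2-positive cells, 8.86-fold lower with LPS, and its other probe set differed by -2.63. Pdp1, the phosphatase that activates pyruvate dehydrogenase, was 9.04 and 6.13 (7.50-fold lower). Among the 13 lower genes, Mdh1 and Aco1, like Idh1, encode cytosolic enzymes. Fh1, the fumarase gene, went from 10.97 to 9.06, and Sdhb, Sdhd, Idh2, Idh3b and Idh3g were also lower. The other probe set of Idh2, however, differed by 0.06. The lower genes thus include some, not all, steps from isocitrate to malate, with Suclg1 of succinyl-CoA synthetase among them.

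Among 81 genes of the respiratory chain and ATP synthase, 76 lay below 0 (median -0.64). Of these 81, 14 passed 2-fold downwards, 17.3% against a background of 13.8%, and 1, Ndufb1, upwards. That background is not matched for signal: of the 2751 genes with the highest untreated signal, 23.3% were lower. Cox7a2l, a factor for assembling chain supercomplexes, was the lowest: 12.52 without and 10.43 with LPS, with 3 probe sets between -2.10 and -2.07. Of 76 mitochondrial ribosomal protein genes, 62 lay below 0 and 11 were lower, near the background share (median -0.43); Mrpl41 and Mrpl42 stood apart at -2.34 each. For 44 cytosolic ribosomal protein genes the median was -0.30, and 1 was lower. Beta-oxidation and peroxisomal genes had 10 of 40 lower and 0 higher (median -0.42), with Hadh, a mitochondrial enzyme of that path, at 11.19 and 8.55.

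Among 38 genes of glycolysis and the pentose phosphate path, 7 were higher and 3 lower, with a median of -0.17. The higher ones were mainly at entry, exit and control points. Pfkfb3, whose product makes an activator of glycolysis, was 7.83 untreated and 12.23 with LPS (21.1-fold higher), both probe sets differing by 4.40. It was 11.88 in PDL2-positive cells. The glucose transporter genes Slc2a6, Slc2a3 and Slc2a1 and the lactate transporter gene Slc16a1 were higher, by 2.86 for Slc2a6 and 2.48 for Slc16a1. The glycogen phosphorylase gene Pygl went the other way, from 11.71 to 9.54.

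**Figure D2:**
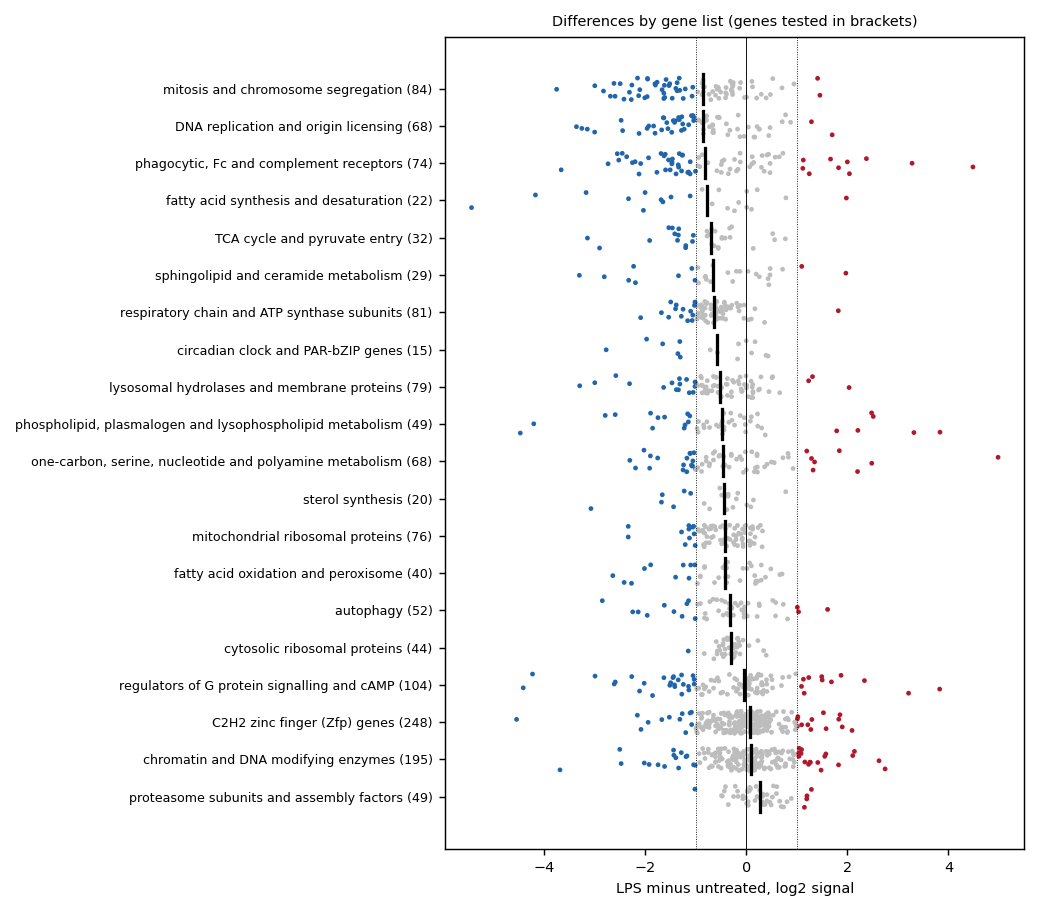
Each point is the LPS minus untreated log2 difference of 1 gene, in rows by gene list with the number of genes tested in brackets; black bars are medians, dotted lines mark 2-fold, blue is lower and red higher. Mitosis, replication, uptake receptors and fatty acid synthesis have medians between -0.87 and -0.78, and the respiratory chain is shifted as a block with few genes past 2-fold.

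Proliferation genes were often lower. Of 84 genes of mitosis and chromosome segregation, 39 were lower and 2 higher, and of 68 genes of DNA replication and origin licensing, 31 were lower and 2 higher; both medians were -0.87. Ncapg2, a condensin subunit gene, was 10.08 untreated, 6.32 with LPS and 7.93 in PDL2-positive cells (13.5-fold lower with LPS). The cyclin gene Ccna2 was 9.36 and 6.67, with its probe sets at -3.16 and -2.69, and Ccnb2 was 9.25 and 6.63. Birc5, a subunit of the chromosomal passenger complex, was 9.08 and 6.07.

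In replication, Gmnn, which encodes the licensing inhibitor geminin, was 9.57 untreated and 6.31 with LPS. Dnmt1, the methyltransferase that copies DNA methylation, was 9.83 and 7.35, and its other probe set differed by -3.02. Rrm2, a subunit of ribonucleotide reductase, was at least 8.03-fold lower from 8.58. Mcm7, a helicase subunit, was 10.3-fold lower by its brightest probe set, but its 4 probe sets ran from -3.36 to -0.64, and it was at -0.65 when normalization and probe set choice used the PDL2-negative arrays alone. The lists were not lower throughout. Trip13 and Pttg1 in the mitosis list, and Dck and Timeless in the replication list, were higher, and Mki67, the gene of the proliferation marker Ki-67 (chosen after its value was seen), was 10.65 without and 10.54 with LPS but 6.21 in PDL2-positive cells. Of 12 measurable markers of monocytes and precursors, 8 were lower on the same array, among them Mpo by 1.72 and Elane by 1.25. Hp of that list was higher by 2.98, and the part of such cells in these differences was not tested.

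Cell cycle promoters are known for a few short elements, so the bases before the start of transcription were read for members of both lists. The sequences are RefSeq's for GRCm38.p6, on the strand of the gene, and end at the base before the start; 8933 of the genes tested had such a sequence. The first 3 belong to the largest decreases among lower mitosis genes whose promoter holds TTTGAA. The last 2 belong to the largest decreases among lower replication genes whose promoter holds TTCCCGCC. Both elements are thus present by selection. Capitals mark, in the mitosis genes, the cell cycle homology region TTTGAA and the CCAAT box (either strand, thus also ATTGG), and in the replication genes the E2F-type element TTCCCGCC.
Ncapg2, chr12:116405286-116405435, plus strand: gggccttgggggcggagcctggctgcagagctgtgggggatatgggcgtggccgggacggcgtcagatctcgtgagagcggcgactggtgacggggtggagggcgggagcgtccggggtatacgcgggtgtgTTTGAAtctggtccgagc
Ccnb2, chr9:70421555-70421731, minus strand: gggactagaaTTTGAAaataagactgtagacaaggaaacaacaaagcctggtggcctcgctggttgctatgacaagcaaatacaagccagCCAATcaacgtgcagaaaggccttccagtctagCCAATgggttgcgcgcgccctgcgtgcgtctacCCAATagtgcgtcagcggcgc
Ncapd2, chr6:125191587-125191773, minus strand: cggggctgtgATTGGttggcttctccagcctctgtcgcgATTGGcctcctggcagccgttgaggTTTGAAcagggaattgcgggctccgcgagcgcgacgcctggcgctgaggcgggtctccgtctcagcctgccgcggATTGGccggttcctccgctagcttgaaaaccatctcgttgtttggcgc
Prim1, chr10:128015065-128015214, plus strand: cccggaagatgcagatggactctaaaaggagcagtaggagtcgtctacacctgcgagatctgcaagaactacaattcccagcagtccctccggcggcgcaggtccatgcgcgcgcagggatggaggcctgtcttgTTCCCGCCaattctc
Rrm1, chr7:102441545-102441694, plus strand: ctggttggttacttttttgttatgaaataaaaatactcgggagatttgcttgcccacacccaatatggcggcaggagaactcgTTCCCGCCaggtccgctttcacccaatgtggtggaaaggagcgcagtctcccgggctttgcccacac

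In Ccnb2 and Ncapd2, 3 CCAAT boxes lay within 177 bases of the start beside 1 TTTGAA, and in Ncapg2 the TTTGAA began 18 bases before the start. Over the 250 bases before the start, on both strands, TTTGAA was found in 10.3% of all promoters, 10.8% of lower genes and 22 of 71 promoters of the mitosis list (31.0%). The share was 29.4% among the list's own lower genes, so it went with the list and not with the direction. The CCAAT box was in 35.8% of all promoters and 66.2% of the mitosis list. TTCCCGCC was in 3.52% of all promoters, 3.49% of higher and 2.80% of lower genes. It was in 4 of 58 promoters of the replication list, Mthfd1, Prim1, Rrm1 and Uhrf1. Each of these was lower, in a list with 31 of 68 genes lower. Searched the same way, the element GAAANNGAA of interferon-stimulated genes was in 11.1% of higher, 5.59% of lower and 6.10% of all promoters. The ETS-type CCGGAAGT was in 2.62% of higher, 3.83% of lower and 5.99% of all. A match is a description of letters and not a site.

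Histone and DNA repair genes went with these lists only in part. Of 12 measurable histone genes, 6 were lower and 0 higher, with H2az2 at 9.90 and 7.21 and H2ax at 9.62 and 7.74. Of 78 DNA repair genes 14 were lower and 0 higher (median -0.16), among them Parp1, which senses strand breaks, at 10.37 and 8.39. Against these stood Ccnd2, the gene of a G1 cyclin. It was 6.97 untreated, 12.74 with LPS and 9.20 in PDL2-positive cells (54.2-fold higher), and its 5 probe sets agreed between 5.59 and 6.05. Cdkn1a, the gene of the cyclin-dependent kinase inhibitor p21, was also higher, at 10.26 and 13.08.

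Many genes of surface receptors for uptake and for inhibitory signals were lower. Immature DCs are known for such receptors, which bind sugars, immunoglobulin, complement and dying cells. Of 74 phagocytic, Fc and complement receptor genes and their ligands, 33 were lower and 10 higher (median -0.82). Cd209a, a C-type lectin gene, was 10.45 untreated and 6.78 with LPS (12.7-fold lower), and Clec10a, which binds galactose-type sugars, was 9.91 and 7.45. Cd93, linked to uptake of dying cells, was 12.58 and 9.84, with 3 probe sets between -2.74 and -2.37, and the inhibitory receptor gene Cd300lf was 10.72 and 8.19. In PDL2-positive cells all 4 were lower than with LPS, from 5.40 for Cd209a to 7.61 for Cd93. The higher members included Marco, a scavenger receptor (at least 22.4-fold, to 10.06), and Clec4e, the lectin Mincle, which went from 10.91 to 14.19. The macrophage markers Mrc1, C1qa and C1qc are also in this list and were lower, C1qa from 12.86 to 11.70, whereas Fcgr1 was higher. Promoters of this list held few CpG dinucleotides, with a median of 3 in 250 bases against 16 over all genes tested.

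Cd28, known as a costimulatory receptor of T cells, was at least 29.3-fold lower, from 10.45 to below the floor, and was 5.97 in PDL2-positive cells. The T cell genes Cd3d and Cd3g were below the floor on both arrays, as given above. Vsir, the gene of the inhibitory ligand VISTA, was 10.86 without and 7.92 with LPS, and its probe sets differed by -3.86 and -2.94.

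Of 79 lysosomal genes, 59 lay below 0, 15 were lower and 3 higher (median -0.53). Manba, the beta-mannosidase gene, was 9.72 untreated and 6.41 with LPS, and Atp6v0d2, a subunit of the proton pump, was 12.15 and 9.84. Of the mucolipin channel genes, Mcoln3 went from 10.19 to 7.18 and Mcoln2 from 9.66 to 11.69, so members of 1 small family differed in opposite directions. The autophagy kinase genes Ulk1 and Ulk2 were lower by 1.62 and 2.14 at their brightest probe sets and by less than 1 at another, while Sqstm1, an autophagy receptor gene, was higher, at 12.46 and 14.06. In all, 10 of 52 autophagy genes were lower and 3 higher. The lower shares, 19.0% of lysosomal and 19.2% of autophagy genes, stand against 13.8% of all genes. Among the 2751 genes with the highest untreated signal the share was 23.3%.

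Receptors that couple to G proteins, and the proteins that end their signals, were the next group. Of 90 such receptors outside the chemokine receptors, 18 were lower and 16 higher, so the list had no common direction (median 0.12). Ptger3, a prostaglandin E2 receptor gene, was 10.07 without LPS and below the floor with it (at least 22.5-fold lower). Lpar6, a lysophosphatidic acid receptor gene, was 11.00 untreated, 6.64 with LPS and 10.53 in PDL2-positive cells (20.6-fold lower), and the orphan receptor gene Gpr160 was 9.67, 5.68 and 8.77 in the same order. Gpr84, a receptor for medium-chain fatty acids, was 7.17 and 11.75 (23.9-fold higher), and Ptges, which makes prostaglandin E2, was at least 54.0-fold higher, to 11.33.

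Below the receptors more genes passed 2-fold downwards than upwards, but the list as a whole had no common direction. Of 104 genes listed as regulators of G protein and cyclic AMP signalling, 25 were lower and 11 higher. The median was -0.05, and 56 lay below 0. These counts take in phosphatase subunit genes, with Ppp1r12c lower and Ppp1r12b, Ppp1r15a and Ppp1r15b higher. Arrb1, the beta-arrestin gene that uncouples receptors, was at least 21.4-fold lower, down to the floor, and was 10.14 in PDL2-positive cells. Rgs proteins speed the shut-off of G proteins, and 5 of the 11 measured were lower and 1, Rgs16, was higher. Rgs2 was 11.83 untreated, 7.59 with LPS and 10.56 in PDL2-positive cells (18.8-fold lower), with its 3 probe sets between -4.23 and -4.11. Rgs18 was 9.22 and 6.22, with probe sets at -3.27 and -3.0, and Rgs10 was 11.67 and 9.07. Prkar2a, a regulatory subunit of cyclic AMP-dependent kinase, was 9.22 and 6.60.

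Genes that regulate Ras differed in both directions. Rasa3, a GTPase activating protein, was 11.18 without and 7.38 with LPS (13.9-fold lower), and Rasal3 was 4.60-fold lower, whereas Rasa2, Rasa4, Sos1, Spred1 and Rasgrp1 were higher. Rasa3 belongs to the list of MAP kinase cascade genes, of which 15 of 79 were lower and 18 higher. Rassf5, an effector linked to integrin adhesion, was 10.03 and 6.06.

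In the actin cytoskeleton, 22 of 115 genes were lower and 18 higher. Itgb5, an integrin chain gene, was 11.73 and 9.15, with 4 probe sets between -2.58 and -2.13, and Coro1a, which encodes a coronin of actin networks, was 12.94 and 10.73. Fscn1, the actin bundling protein of DC processes, went from 8.96 to 12.81, and Marcksl1 from 10.12 to 13.66. The list thus split, with large differences both ways.

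Some early response transcription factors had large decreases. Of 57 such genes, 14 were lower and 11 higher (median -0.14). Fos, an AP-1 subunit gene, was 12.85 untreated, 7.78 with LPS and 9.82 in PDL2-positive cells (33.7-fold lower). Egr1 was 10.87, 6.89 and 6.42 in that order, and Klf4, a factor of monocyte differentiation, was 11.24, 7.77 and 7.96, with its 2 probe sets at -3.46 and -3.33. The untreated PDL2-negative array held the highest value of the 3 for Fos, Egr1 and Klf4. Fosl1, Fosl2, Batf and Mafg of the same families were higher. Of 90 regulators of myeloid lineage and tissue macrophages, 19 were lower and 15 higher (median 0.05), so the list had no common direction. The lower ones included Fli1, an ETS factor (9.79 and 6.99, probe sets at -2.80 and -2.74), and Hhex, a homeobox factor (9.84 and 6.59). Zeb1 and Stat5a were among the higher ones.

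Of 15 measurable circadian clock genes, 6 were lower and 0 higher (median -0.57). Nr1d2, which encodes the repressor REV-ERB beta, was 9.54 without LPS, 6.77 with it and 9.85 in PDL2-positive cells (6.85-fold lower). Rora, Tef, Dbp, Csnk1e and Bhlhe40 were the others, and for Rora 1 of 3 probe sets lay at 0.22.

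Of 68 genes of mRNA decay and translation control, 12 were lower and 8 higher. Zfp36l2 and Zfp36l1, which bind AU-rich elements, were lower, whereas Zfp36 of the same family was higher by 1.02. The nuclease genes Zc3h12a and Zc3h12c were higher, by 3.22 and 2.48. Zfp36l1 was 11.59 and 9.50 with 2 probe sets at -2.11 and -2.09. Zfp36l2 was 12.73 and 8.17 by its brightest probe set, whereas the others stood at -1.66 and 0.07. Of 74 genes of TGF-beta, BMP, Wnt, Notch and Hippo signalling, 7 were lower and 10 higher. The receptor genes Tgfbr1, Tgfbr2 and Tgfbr3 were each lower, Tgfbr2 from 10.47 to 7.74 and Tgfbr1 from 11.64 to 9.24, whereas the receptor genes Acvr1b and Bmpr2 were higher, by 1.91 and 1.07. The Notch ligand genes Jag1 and Dll4 and the Wnt receptor genes Fzd1, Fzd5 and Fzd7 were higher, with Jag1 at 6.13 and 9.89.

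Sugar chains of the cell surface are built by glycosyltransferases. St6gal1, which adds alpha-2,6-linked sialic acid, was at least 24.3-fold lower, from 10.18 to below the floor, by its brightest probe set and by 1.86 on the other, and was 10.74 in PDL2-positive cells. Gcnt1, which branches O-glycans, was at least 11.7-fold lower from 9.13. St3gal1, which adds alpha-2,3-linked sialic acid, went from 7.25 to 11.18 at its brightest probe set and by 1.42 at the other. In all 16 of 78 were lower and 10 higher, and the sialyltransferases split by enzyme.

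Transport and micronutrient genes also split. Slc7a2, an arginine transporter gene, was 8.36 untreated, 13.17 with LPS and 5.53 in PDL2-positive cells (28.0-fold higher), with 3 probe sets between 4.81 and 6.45. Slc7a11, the cystine exchanger gene, was 8.77 and 12.70, and Slc39a14, a zinc and iron importer gene, was 7.01 and 11.45. On the lower side were Slc43a2, a transporter of large neutral amino acids (11.11 and 7.62), and Slc36a1, a lysosomal amino acid exporter (9.28 and 6.55). Tfrc, the transferrin receptor gene that imports iron, was 11.17 and 8.47, while Cp, a copper oxidase that helps iron leave the cell, was at least 13.2-fold higher, to 9.30. Mt2, a metallothionein gene, was 8.31 and 13.15 (28.6-fold higher). Pdxk, the vitamin B6 kinase gene, was 14.8-fold lower by its brightest probe set, with the others at -1.55 and -0.28.

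**Figure D3:**
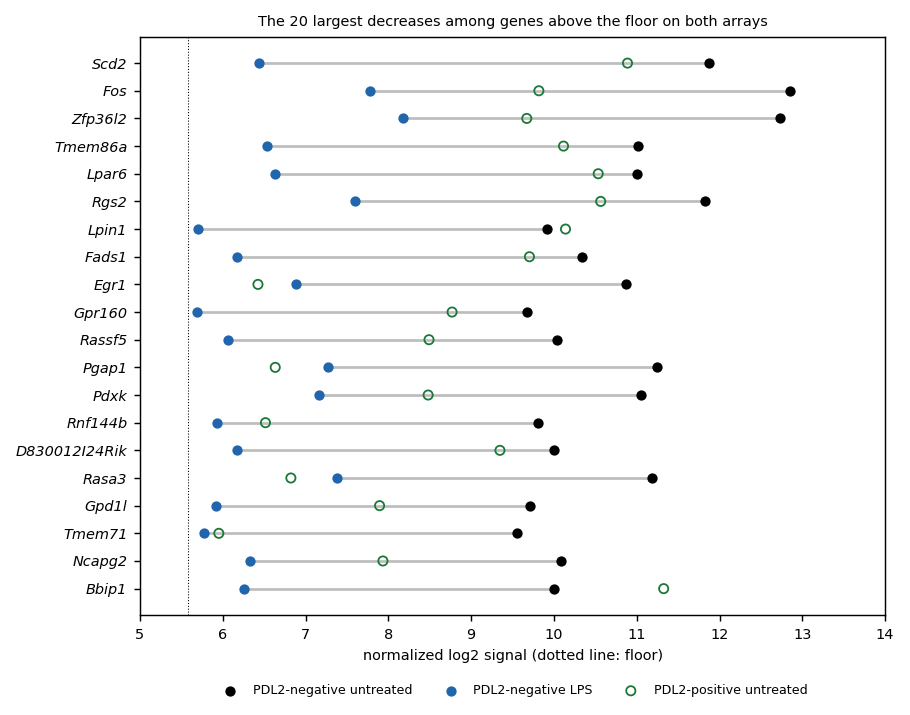
Log2 signals on the 3 arrays for the 20 largest decreases, outside the usual lists and with both PDL2-negative values over the floor; black is untreated, blue is LPS and open green circles are untreated PDL2-positive cells. For Scd2, Tmem86a, Lpar6, Lpin1 and Fads1 the PDL2-positive value lies nearer to the untreated than to the LPS one, and for Egr1, Pgap1 and Rasa3 it lies below the LPS value.

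Several large decreases were in genes not yet described, many of them in no list. Of the 1521 lower genes, 870 were in none of the 58 lists of functions, usual genes and markers. Pgap1, which trims the lipid anchor of GPI-linked proteins, was 11.24 untreated, 7.28 with LPS and 6.63 in PDL2-positive cells. Gpd1l, which encodes a glycerol 3-phosphate dehydrogenase, was 9.71, 5.92 and 7.89 in that order. Rnf144b, in the ubiquitin ligase list, was 9.81, 5.93 and 6.52, and Tmem71, of which no function is given here, 9.55, 5.77 and 5.95. By agreement between probe sets, the decreases that stood out were Rab11fip5 (11.73 and 8.30), an effector of recycling endosomes in the Rab list, Mical1 (9.72 and 6.45), an actin oxidase, Ivns1abp (11.76 and 8.49), Tns1 (9.68 and 6.50), a focal adhesion protein, and Camk1d (9.86 and 6.75), a calcium-dependent kinase. Each of these 5 was lower by at least 3.0 on the log2 scale with every usable probe set.

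For 127 of the 4231 genes with 2 or more usable probe sets, the probe sets differed from each other by 2 or more on the log2 scale. Zdhhc14, a palmitoyltransferase gene, was among the widest: its brightest probe set held -0.05 and another -0.16, whereas 3 more held -4.60, -3.94 and -3.91. It is therefore not counted among the lower genes. Ccr2, a chemokine receptor gene of monocytes, was 9.27 and 7.96 by its brightest probe set, but 2 others went from 12.06 to 6.39 and from 11.87 to 6.30. Acpp, an acid phosphatase gene, stood at 0.15 by its brightest probe set and at 4.05 and 3.25 by the others. Bbip1, among the 20 largest decreases, had its other probe sets at -0.24 and -0.06, and was at -0.24 when the PDL2-negative arrays alone were used. Which transcript forms the probe sets read was not tested.

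**Figure D4:**
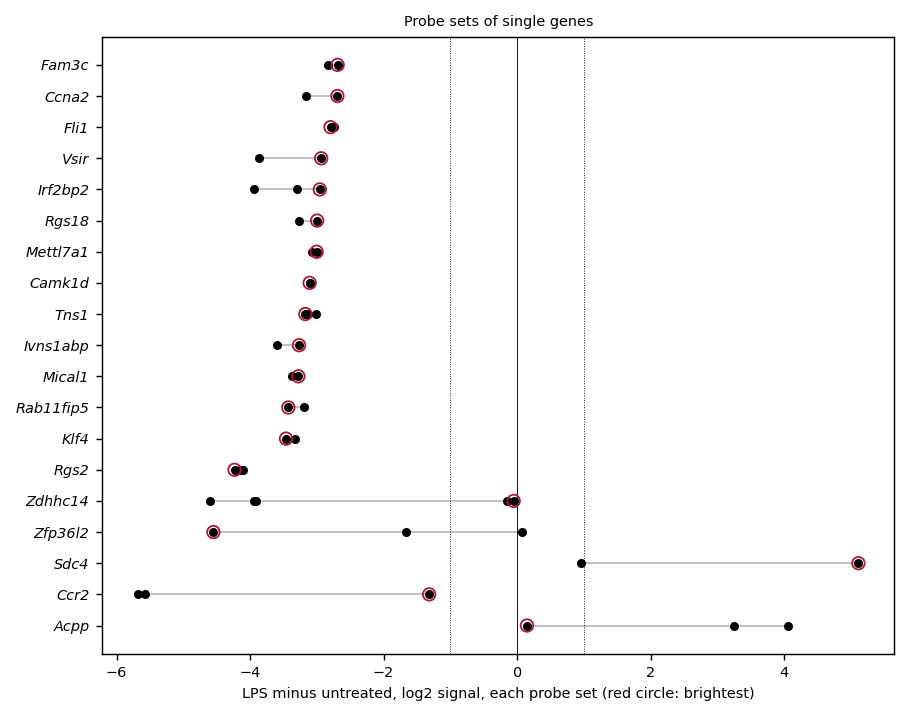
Each point is 1 probe set above the floor on both arrays, at its LPS minus untreated log2 difference; red circles mark the brightest, which stands for the gene, and dotted lines mark 2-fold. From Rgs2 up to Fam3c the probe sets of a gene lie within 1.0 of each other, and for Zdhhc14, Zfp36l2, Sdc4, Ccr2 and Acpp they span 3 or more.

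Outside the usual lists the largest increase was that of U90926, a gene without a known protein role, at 6.44 untreated, 13.28 with LPS and 6.41 in PDL2-positive cells (115-fold higher). Ch25h, which makes 25-hydroxycholesterol, was 5.81, 11.87 and 8.49 in that order, and Serpinb2, a protease inhibitor gene, 6.08, 11.92 and 5.03. Upp1, the uridine phosphorylase gene, was 5.81 and 10.79. These untreated values lay close to the floor, apart from that of U90926, so their folds are close to lower bounds. Fnbp1l, a membrane-bending protein gene, was 5.68 untreated and 11.05 with LPS and, unlike Serpinb2 and Upp1, was also high in PDL2-positive cells, at 10.95. The heat shock genes Hspa1b and Hspa1a were at least 42.3-fold and 16.7-fold higher, while the 58 cytosolic chaperone genes had a median of 0.00 with 6 higher and 3 lower.

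Some large lists had few lower genes, below the background share of 13.8%. That share is not matched for signal, and of the 2750 genes with the lowest untreated signal 0.47% were lower. Of 248 genes of the Zfp and related stems, matched by symbol, 13 were higher and 12 lower (median 0.07). A further 145 genes of this list did not exceed the floor on either array. Of 195 chromatin and DNA modifying enzyme genes 18 were higher and 16 lower (median 0.09), although Setd7, a methyltransferase gene, was at least 12.9-fold lower from 9.27. Of 277 ubiquitin ligase, F-box and deubiquitinase genes 33 were higher and 25 lower. Splicing and processing factors had 3 of 98 higher and 8 lower, and proteasome genes 4 of 49 higher and 1 lower, with a median of 0.26.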

How the data were processed

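Biotin-labelled total RNA was hybridized to 3 arrays, 1 per group. The authors deposited log2 signals, 1 per probe set; how they were summarized is not given by the sources used. Control probe sets (13 of 38546) were left out. The deposited 75th percentiles were 7.90 (PDL2-negative untreated), 7.68 (LPS) and 7.84 (PDL2-positive), and the values were quantile-normalized over the 3 arrays. Probe sets naming 1 gene (33987) were used, and 449 naming several and 4110 unnamed were not. Of those used, 33800 took the RefSeq symbol of their gene number, whether or not it differed from the earlier one. A gene took its probe set with the highest mean. At that probe set, 1022 of the genes tested had the same deposited value on both PDL2-negative arrays, and the cause was not tested. Values at or below the floor (the median, 5.58) were raised to it. A gene past 2-fold was called higher or lower; with 1 array per group no test exists. On simulated arrays with 10869 genes and noise of SD 0.20, the rule recovered 94% of genes set 1.5 apart and 100% of genes set 3 apart (log2). Only bright genes were changed there, equally in all their probe sets. The noise was a fixed setting for each array and held no variation between cultures or mice. The recovery therefore does not cover such variation, dim genes or genes whose probe sets disagree.

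The members, the 58 lists and the rule for named genes were chosen with earlier results of these data known. Outside 3 lists of usual genes the rule named the 20 largest decreases and 10 largest increases above the floor on both arrays, the 15 and 8 with agreeing probe sets, the 6 and 4 largest lower bounds, up to 5 members per list and direction, the 5 widest probe set disagreements and families past 40%. Python 3.11.15, numpy 2.4.6 and pandas 2.3.3 were used. Alternatives for normalization, floor, probe set and fold were computed. The results of 1 gene list and of 1 gene family are not reported here.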

Additional observations from a re-analysis of the deposited data

How the results depend on the processing

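No paired analysis was possible because each group has 1 array. The counts of 1009 higher and 1521 lower genes moved to 1660 and 2707 at 1.5-fold and to 581 and 646 at 3-fold. With the floor at the 75th percentile of all values, 910 genes were lower; of the 1521 lower genes, 1230 still had a value at that floor, and 910 of these stayed past 2-fold. With the deposited values the counts were 913 and 1796, with arrays centred on their medians 947 and 1725, and with the mean of all probe sets 897 and 1077. Of the 1521 lower genes, 1508, 1495 and 1502 stayed past 2-fold with the deposited values, the median-centred ones and the normalization over the 2 PDL2-negative arrays; with the mean of probe sets 1018 of 1480 did. Direction was turned by the choice of probe set for 5 named genes: Atf6 was at 0.059 with the mean of its probe sets, and Mgll at 0.13, Psen2 at 0.44, Slc25a39 at 0.17 and Taf1d at 0.12 with probe sets whose names mark no shared sequence. Among genes named above, Trip13, Rora, Tef, Dbp, Csnk1e, Slc2a3 and Tgfbr3 were within 2-fold with the mean of probe sets. Rrm2, Trip13, Timeless, Me1, Mpo, Smpd2, Ulk2, Dll4 and Fzd7 were within it at the higher floor. Pdxk, Sdc4, H2az2, Pttg1, Trip13, Dbp and Slc2a3 were within it with probe sets whose names mark no shared sequence.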
